A study of Gallus gallus with 38 samples.

Results

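The genes considered here move iron across the gut epithelium and hold it in cells: *TFRC* (transferrin receptor), *SLC11A2* (the ferrous iron importer DMT1), *CYBRD1* (a ferric reductase), *FTH1* (ferritin heavy chain) and *SLC40A1* (ferroportin). They were chosen by gene symbol, and each probe set that the platform annotation gives to such a symbol was taken. In all, 4 of the 5 genes had a named probe set, which gave 5 of the 18308 probe sets on the array, because *TFRC* had 2. *CYBRD1* was found neither by symbol nor by gene ID and was not analysed here. For *TFRC*, the probe set with the highest mean over all 38 arrays was used as the main one.

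Scraped mucosa of the jejunum and of the cecum was collected from 19 Ross 308 male broilers at 42 days of age, and the RNA of each tissue and bird was hybridised to 1 Affymetrix chicken array. All birds had received the same standard diets in phases, so tissue was the only contrast. Values are log2 signals, in which a difference of 1 is a 2-fold change ratio (FCR), and they cannot be compared between probe sets. A differentially expressed transcript (DET) had an FCR of at least 2 and an adjusted p under 0.05.

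Iron from the gut lumen is reduced at the brush border, enters the enterocyte through DMT1, is stored in ferritin or leaves through ferroportin on the basolateral side, where it is oxidised and bound to transferrin. Cells take transferrin-bound iron back up through the transferrin receptor, and dividing cells and red cell precursors carry much of it. In mammals, iron regulatory proteins stabilise the mRNA of the receptor and block the translation of ferritin and ferroportin when cells are short of iron, so that mRNA and protein of these genes need not move together.

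Array medians lay between 5.57 and 5.75, single signals between 0.85 and 13.8, and the correlation of an array with the mean of the other arrays of its tissue between 0.928 and 0.992. The arrays that stood apart most were the cecal one of bird 3 (0.928) and the jejunal one of bird 19 (0.962). The highest correlation between 2 arrays was 0.988, so none appeared to have been deposited more than once. Of 12 measured markers of absorptive enterocytes, 10 were DETs more expressed in the jejunum, and their mean per array ranged from 9.39 to 11.4 in the jejunum and from 4.89 to 7.44 in the cecum. The description field of the labels speaks of oxyntic (stomach) mucosa, but the mean of 4 stomach genes (*ATP4B*, *PGC*, *CBLIF* and *PGA5*) stayed between 3.40 and 4.54 on all arrays, and limma called none of them, with 0 of 4 at an unadjusted p under 0.05. Since whole mucosa was measured, fewer cells of a type and less RNA per cell cannot be told apart in any value below.

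Iron uptake from transferrin, storage and export were each represented by a transcript that was more expressed in the cecum, while the DMT1 transcript was not called in either direction. By its main probe set *TFRC* had an FCR of 3.78, while that of *SLC40A1* was 1.81 and that of *FTH1* 1.36. *SLC11A2* differed by a ratio of 1.07 of jejunum over cecum. The other probe set of *TFRC* was not called (limma adjusted p 0.646). By limma, with p-values adjusted (Benjamini-Hochberg) across the whole array, 3 of the 4 genes had an adjusted p under 0.05 with the cecum above the jejunum, a call that 25.1% of all probe sets received. *TFRC* was the only DET among them, against 3.62% of all probe sets that were DETs of the cecum. No member was called toward the jejunum by either rule, against 20.1% and 3.68% of all probe sets. Because the members were chosen with earlier results of these data known, these shares are a background and not a test.

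*TFRC*, which brings iron into cells by endocytosis of loaded transferrin, ranged in the jejunum from 6.98 in bird 2 to 8.42 in bird 8, with a median of 7.36. In the cecum it ranged from 8.86 in bird 17 to 9.89 in bird 2, with a median of 9.38. All cecal arrays thus lay above all jejunal arrays, and bird 2 held both the lowest jejunal and the highest cecal signal. A gap of this kind between the tissues, with the jejunum lower, was seen in 1.22% of all probe sets. The cecum exceeded the jejunum by 1.92 on the log2 scale (SE 0.11, 95% confidence interval 1.71 to 2.13, 19 birds, limma adjusted p 2.633e-19). By bird, the signal of the cecum was higher in 19 of 19 birds, a count reached by 4.69% of all probe sets, and the excess ran from 0.98 in bird 8 to 2.91 in bird 2.

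The other probe set of *TFRC* did not show this difference. It ranged from 4.50 to 5.25 in the jejunum and from 4.30 to 5.56 in the cecum, with medians of 4.87 and 4.74, so that the tissues overlapped over nearly their whole range. The jejunum was higher by 0.06 (95% confidence interval -0.12 to 0.24, limma adjusted p 0.646), in 10 of 19 birds. Its signal was below the array median in both tissues, and the part of the transcript that each probe set covers was not analysed here. Averaging both probe sets gave a difference of -0.93 for jejunum minus cecum (limma adjusted p 5.5e-16), which left the direction and ended the DET call.

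**Figure D1:**
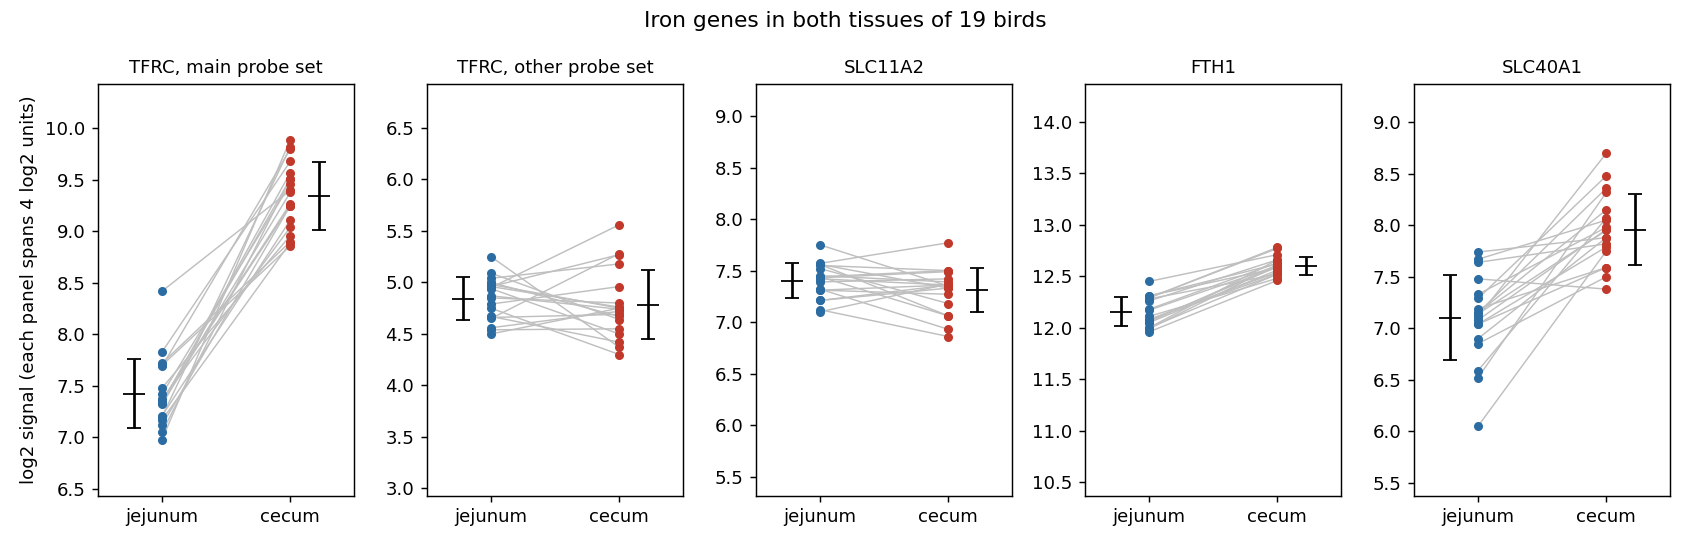
Log2 signal of the 5 probe sets in the jejunum (blue) and cecum (red) of 19 birds. Grey lines join the tissues of a bird, black marks are the mean and SD, and each panel spans the same number of log2 units. The main *TFRC* probe set and *FTH1* separate the tissues completely, *SLC40A1* overlaps on 4 arrays of each tissue, and *SLC11A2* and the other *TFRC* probe set overlap almost entirely.

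*SLC11A2*, the proton-coupled importer of ferrous iron at the brush border and in endosomes, was close in both tissues. In the jejunum it ranged from 7.10 to 7.75 with a median of 7.43, and in the cecum from 6.86 to 7.77 with a median of 7.36. The lowest and the highest signal of all were both cecal, in birds 8 and 3, and the jejunum was higher in 11 of 19 birds. The difference of 0.09 (SE 0.07, 95% confidence interval -0.04 to 0.23) had a limma adjusted p of 0.274, which places the ratio of jejunum over cecum between 0.97 and 1.17 without showing that the tissues were alike. Leaving out the jejunal arrays of birds 19 and 8 and the cecal arrays of birds 3 and 12 raised the difference to 0.16 and gave an adjusted p of 0.036, while leaving out the array of bird 19 or that of bird 3 alone gave adjusted p-values of 0.185 and 0.118. That set of 4 holds the lowest jejunal signals of the gene (7.10 in bird 19 and 7.12 in bird 8) and its highest cecal one, whose removal raises the jejunal excess. They were not the 4 arrays that stood apart most, since the cecal array of bird 12 correlated with its tissue by 0.989.

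*FTH1*, the ferritin subunit that oxidises iron for storage, had the narrowest ranges. Its jejunal signals lay between 11.96 and 12.45 with a median of 12.11, and its cecal signals between 12.46 and 12.78 with a median of 12.60. The lowest cecal signal was above the highest jejunal one only in the last decimal given, so that the tissues did not overlap, although the fold was small. Such a gap with the jejunum lower was seen in 1.22% of all probe sets. The cecum was higher by 0.45 (SE 0.05, 95% confidence interval 0.35 to 0.54, limma adjusted p 2.0e-10), in 19 of 19 birds and by 0.24 in bird 3 to 0.66 in bird 18. The FCR of 1.36 was under the DET threshold. These signals were near the top of the scale, where saturation of single probes cannot be seen in summarised values and its part was not tested.

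*SLC40A1*, the exporter through which iron leaves enterocytes and macrophages, varied more between birds. In the jejunum it ran from 6.05 in bird 2 through a median of 7.14 to 7.74 in bird 19, and in the cecum from 7.38 in bird 3 through a median of 7.95 to 8.70 in bird 10. The tissues overlapped, since 4 jejunal arrays reached the lowest cecal signal and 4 cecal arrays did not exceed the highest jejunal one. The cecum was higher by 0.85 (SE 0.12, 95% confidence interval 0.61 to 1.10, limma adjusted p 8.8e-08), in 18 of 19 birds. The exception was bird 3, whose cecal array stood apart, and the largest excess was 1.80 in bird 6. Without the cecal array of bird 3 the difference was 0.89.

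The other genes of iron handling were described by lists of their role. Of 132 genes in 8 lists of iron and other metals, 93 had a named probe set. At an adjusted p under 0.05, 24 (25.8%) were called toward the jejunum and 31 (33.3%) toward the cecum, beside the 20.1% and 25.1% of all probe sets, and 6 and 4 of them were DETs. Their median difference of jejunum minus cecum was -0.06, against -0.03 over all probe sets and -0.04 over the main probe sets of 11528 genes with a single symbol. These 93 genes include the 4 members and 22 transporters of other metals. Without both, 67 genes were left, of which 16 (23.9%) were called toward the jejunum and 25 (37.3%) toward the cecum. Of these 67, 4 and 3 were DETs, and the median difference was -0.09. The shares over all probe sets include 5752 without a symbol. Shares over named genes alone were not computed, so the higher shares of the lists are not a like comparison. The 20.1% and 25.1%, and for DETs 3.68% and 3.62%, are also the background for the counts of each list below. No list was tested as a set. The plot of differences by list sets the members among these genes.

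**Figure D2:**
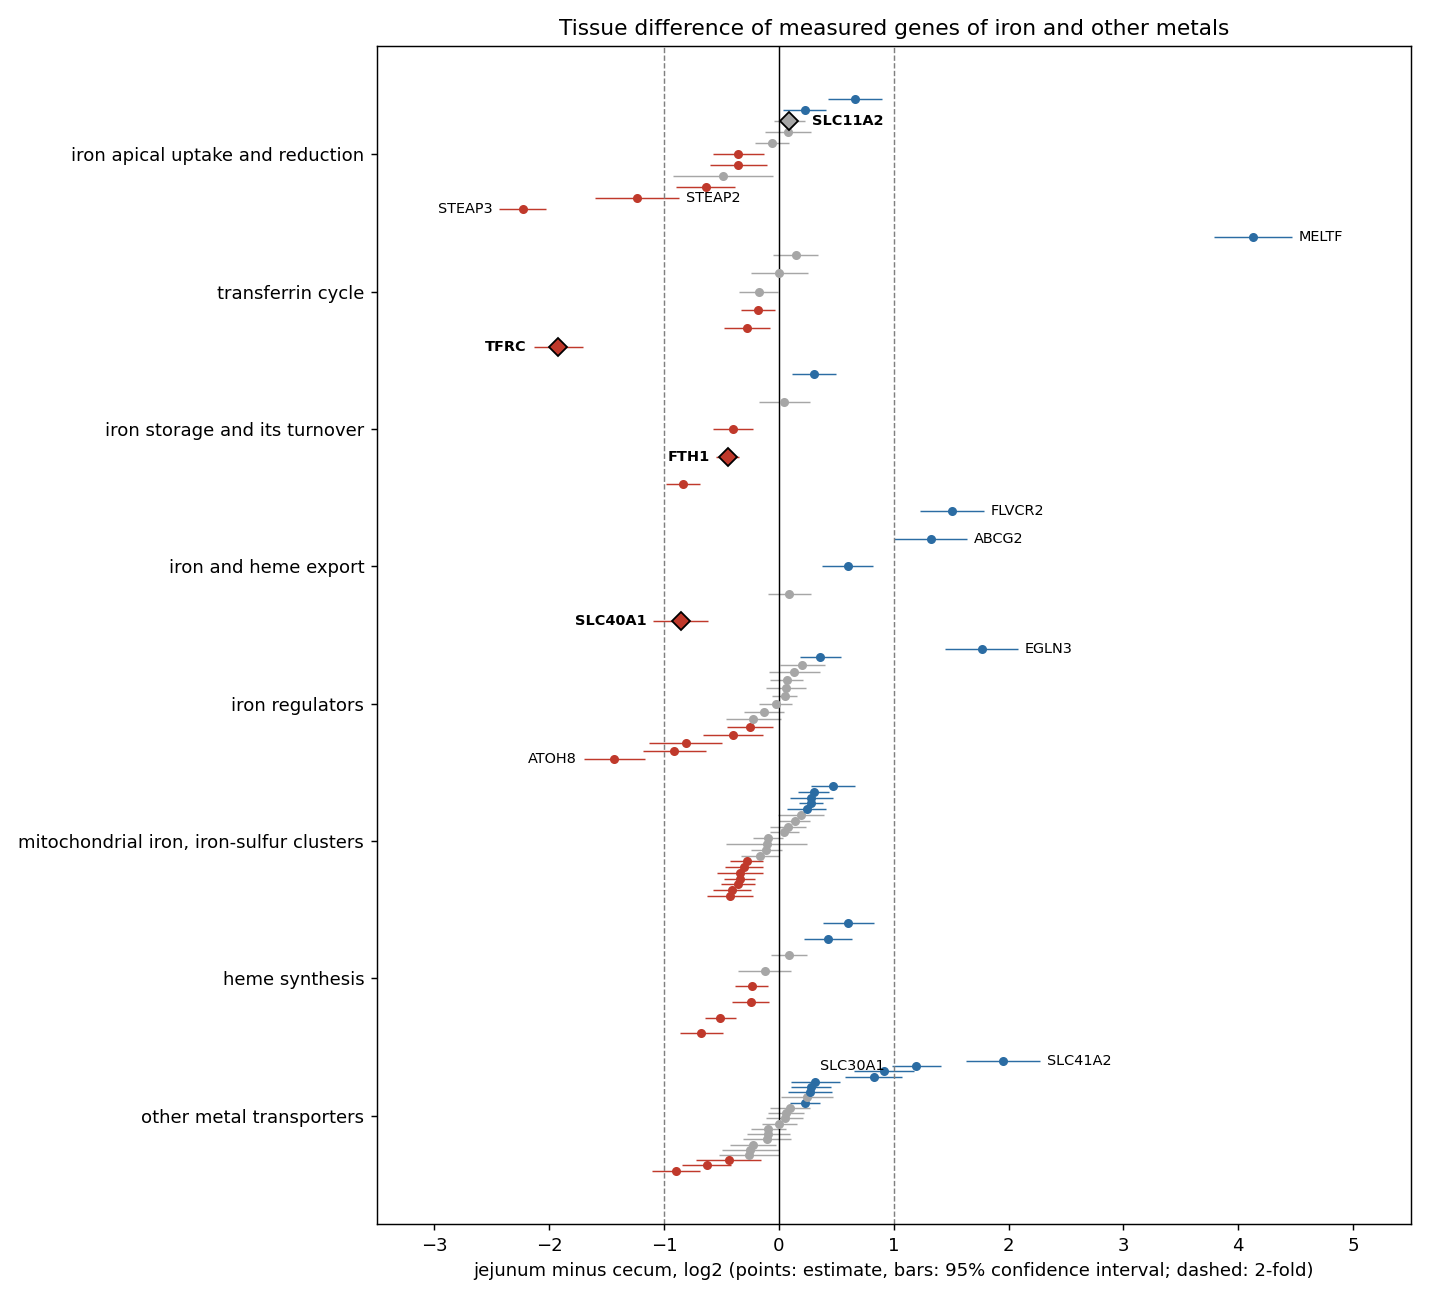
Difference of jejunum minus cecum in log2 units for the 93 measured genes of iron and other metals, by list, with 95% confidence intervals. Blue and red mark genes with an adjusted p under 0.05 that were higher in the jejunum and cecum, grey the others, diamonds the members, and named circles the DETs. *MELTF* lies farthest to the right at 4.13, and *STEAP3* and *TFRC* farthest to the left at -2.23 and -1.92.

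In the list of apical uptake and reduction, 5 of 11 measured genes were called toward the cecum at an adjusted p under 0.05 and 2 toward the jejunum, with 2 DETs, both of the cecum. This list also holds endosomal genes, so its count is not one of apical uptake alone, and *SLC11A2*, which belongs to it, was not called. *STEAP3*, the reductase that converts iron inside transferrin endosomes, ranged from 4.80 to 5.99 (median 5.32) in the jejunum and from 7.27 to 8.09 (median 7.58) in the cecum. The tissues did not overlap, as for 1.22% of all probe sets in this direction, and the cecum was higher by 2.23 (SE 0.10, FCR 4.69, limma adjusted p 2.7e-22) in 19 of 19 birds. *STEAP2*, a related metalloreductase, was low in the jejunum (2.19 to 3.25) and varied in the cecum from 2.89 to 5.17, with an FCR of 2.35 and the cecum higher in 18 of 19 birds, and the filter on low signals (a mean of at least 5 in a tissue) removed it. *SLC39A8*, which carries zinc, manganese and iron, was higher in the cecum by 0.64 in 16 of 19 birds. Its means of 3.03 in the jejunum and 3.66 in the cecum were low as well, and the same filter removed it. *SLC46A1*, a folate transporter that was first described as a heme carrier, was higher in the jejunum by 0.67 in 17 of 19 birds. The endosomal heme transporter gene *SLC48A1* had means of 6.56 in the jejunum and 6.91 in the cecum (limma adjusted p 0.0071).

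The transferrin cycle list had 7 measured genes, of which 3 were called toward the cecum, 1 toward the jejunum and 3 in neither direction. *TFRC* was its DET of the cecum. *MELTF* (melanotransferrin), a membrane-anchored relative of transferrin that binds iron, was its DET of the jejunum. It ranged from 6.55 to 9.34 (median 8.59) in the jejunum and from 3.60 to 5.08 (median 4.47) in the cecum, so that every jejunal array lay above every cecal one, as for 1.73% of all probe sets. Its FCR of 17.5 (difference 4.13, SE 0.17, limma adjusted p 6.4e-24) was opposite in direction to that of *TFRC*. *MELTF* was listed as a relative of transferrin and is not part of the receptor cycle, so the counts of this list are not of that cycle alone. The differences of the recycling and coat genes *RAB11B* and *CLTC* were small, at -0.27 and -0.18, and *RAB11A*, *SNX3* and *EXOC6* were not called.

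Beside *FTH1*, the storage list had 4 measured genes and no DET. *HMOX2*, the constitutive heme oxygenase that releases iron from heme, ranged from 5.47 to 6.07 in the jejunum and from 6.09 to 7.11 in the cecum. The tissues did not overlap, as for 1.22% of all probe sets in this direction, and the cecum was higher by 0.84 (SE 0.07, limma adjusted p 8.7e-13) in 19 of 19 birds. The inducible oxygenase *HMOX1* had the opposite sign, with means of 7.65 in the jejunum and 7.34 in the cecum (limma adjusted p 0.0081). *PCBP2*, a chaperone that hands iron to ferritin, was higher in the cecum by 0.40. *NCOA4*, the receptor that takes ferritin to the lysosome, differed by 0.05 (limma adjusted p 0.774).

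Export was the list in which *SLC40A1* stood against the other called genes. Of its 5 measured genes, *FLVCR2*, *ABCG2* and *HEPH* had their higher level in the jejunum and *SLC40A1* in the cecum, while *HEPHL1* was not called. The list also holds ferroxidases and *FLVCR2*, which is not established as an exporter, so its counts are not of export alone. *HEPH* (hephaestin), the ferroxidase that works beside ferroportin on the basolateral membrane, ranged from 7.70 to 8.85 (median 8.48) in the jejunum and from 6.86 to 8.45 (median 7.83) in the cecum. Its tissues overlapped widely, although the jejunum was higher by 0.60 (SE 0.11, limma adjusted p 1.5e-05) in 18 of 19 birds. *FLVCR2*, described as a heme and choline transporter, had an FCR of 2.85 and did not overlap (5.54 to 7.89 against 4.02 to 5.34), as for 1.73% of all probe sets in this direction. *ABCG2*, an efflux pump that also carries porphyrins, had an FCR of 2.50, with ranges of 7.54 to 9.30 and 5.68 to 8.41, and its jejunal signal was the higher one in 19 of 19 birds, a count that 4.91% of all probe sets reached in this direction.

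Among 15 measured regulators, 5 (33.3%) were called toward the cecum and 2 (13.3%) toward the jejunum, beside 25.1% and 20.1% of all probe sets. The mRNA of the iron regulatory proteins differed little between tissues. *ACO1* (iron regulatory protein 1) was higher in the cecum by 0.25 (limma adjusted p 0.033), and *IREB2* (iron regulatory protein 2) differed by 0.05 (adjusted p 0.479). *FBXL5*, the iron-sensing subunit of the ligase that removes them, was higher in the jejunum by 0.36 (adjusted p 7.9e-04). *EPAS1*, whose product HIF-2 alpha drives the iron uptake genes of the mammalian duodenum, had means of 9.60 and 9.73 and was not called (adjusted p 0.225). *EGLN3*, a prolyl hydroxylase that acts on such factors, was a DET of the jejunum with an FCR of 3.40, from 7.08 to 9.29 against 6.02 to 7.82. The DET of the cecum was *ATOH8*, a transcription factor that in mammals takes part in hepcidin control, with 3.64 to 5.20 in the jejunum and 4.83 to 6.43 in the cecum (FCR 2.70, 19 of 19 birds). The ligands *BMP2* and *BMP6*, which induce hepcidin in the mammalian liver, were higher in the cecum by 0.91 and 0.81. The hepcidin gene *HAMP* had no named probe set, so hepcidin itself was not measured here.

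**Figure D3:**
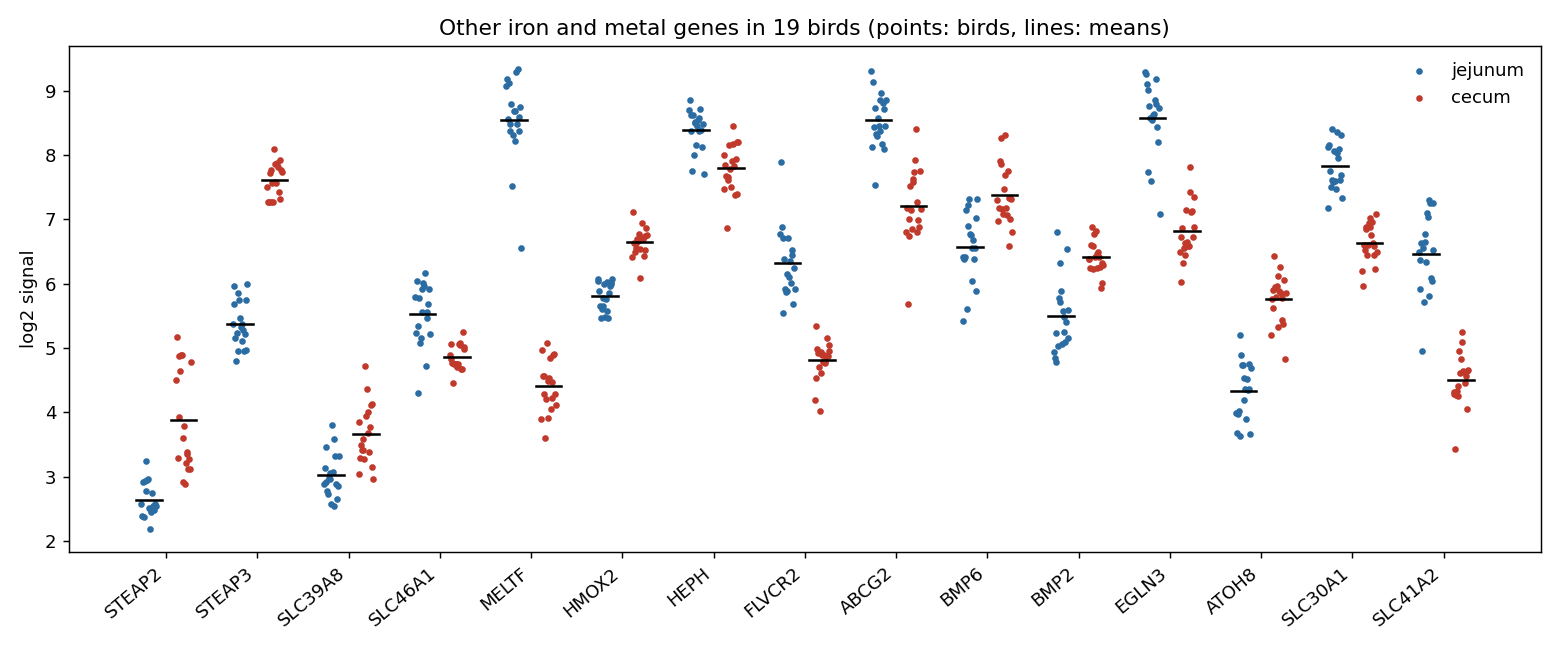
Log2 signals of the other named iron and metal genes in the jejunum (blue) and cecum (red) of 19 birds, with lines at the means. Levels of different genes cannot be set against each other. *MELTF* and *STEAP3* separate the tissues completely in opposite directions, while *HEPH* and *BMP6* overlap.

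Genes that use iron inside the cell gave no DET. None of the 20 measured genes of mitochondrial iron and iron-sulfur clusters reached an FCR of 2, with sizes up to 0.47 for *FDX1*, a ferredoxin. Of these, 5 (25.0%) were called toward the jejunum and 7 (35.0%) toward the cecum, beside 20.1% and 25.1% of all probe sets. Of 8 heme synthesis genes, 2 were called toward the jejunum, 4 toward the cecum and 2 in neither direction. *FECH*, the enzyme that inserts iron into the heme ring, was higher in the cecum by 0.67 (limma adjusted p 8.1e-08), whereas *ALAS1*, the first and rate-limiting enzyme, differed by -0.12 for jejunum minus cecum (adjusted p 0.412). Of 22 transporters of other metals, 8 (36.4%) were called toward the jejunum and 3 (13.6%) toward the cecum, beside the same shares of all probe sets. The zinc exporter *SLC30A1* (FCR 2.29) and the magnesium transporter *SLC41A2* (FCR 3.87) were DETs of the jejunum, both in 19 of 19 birds, and the copper importer *SLC31A1* was higher there by 0.82. *TRPM7*, a channel for divalent ions, was higher in the cecum by 0.90.

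The cell types of the mucosa also differed between tissues. All 13 measured markers of dividing cells were more expressed in the cecum, 12 of them as DETs, and their mean per array ranged from 5.29 to 7.80 in the jejunum and from 7.25 to 8.25 in the cecum. They moved with *TFRC* in the jejunum. There, *TFRC* correlated with their mean over 19 arrays (Pearson r 0.80, permutation p 3e-05, adjusted 0.0024, Spearman rho 0.72, permutation p 8e-04, adjusted 0.032, r 0.64 without the 2 arrays farthest from the median). In the cecum the same correlation was 0.15 (permutation p 0.547, adjusted 0.706, rho 0.12, adjusted 0.779). Other marker lists moved with it too. Jejunal *TFRC* also correlated with the macrophage markers (r 0.74, permutation p 5.4e-04, adjusted 0.014, rho 0.51, adjusted 0.187, r 0.42 without the 2 farthest arrays) and the T cell markers (r 0.62, permutation p 0.0054, adjusted 0.033, rho 0.52, adjusted 0.171). With the B and plasma cell markers the Spearman value passed (rho 0.75, permutation p 3.8e-04, adjusted 0.030) and the Pearson value did not (r 0.57, adjusted 0.110). With the stomach markers, which were low on all arrays, it was negative (r -0.65, permutation p 0.0023, adjusted 0.033, rho -0.44, adjusted 0.255). The jejunal arrays of birds 8 and 19 reached the lowest cecal mean of the dividing cell markers, and their *TFRC* signals of 8.42 and 7.83 stayed below the lowest cecal *TFRC* signal of 8.86. The part of dividing cells in the difference of *TFRC* was not tested. The 10 measured red blood cell markers, among them the globins *HBA1* and *HBAD*, gave means of 3.72 to 4.64 in the jejunum and 3.86 to 4.93 in the cecum, and limma called 0 of 10, with 0 at an unadjusted p under 0.05.

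Of 8 measured macrophage markers, 7 were called toward the cecum, among them *C1QC* by 0.80 and *MRC1* by 0.80, *LGMN* was higher in the jejunum, and none was a DET. The means of *MRC1* were low, at 3.55 in the jejunum and 4.35 in the cecum. The mean of the 8 markers per array ranged from 6.49 to 7.67 in the jejunum and from 6.95 to 7.77 in the cecum. *SLC40A1* correlated with it in the jejunum (r 0.64, permutation p 0.0033, adjusted 0.033, rho 0.56, adjusted 0.127, r 0.45 without the 2 farthest arrays) and in the cecum (r 0.63, permutation p 0.0042, adjusted 0.033, rho 0.59, adjusted 0.114, r 0.89 without the 2 farthest arrays). On 7 jejunal arrays the marker mean reached the lowest cecal one, and there *SLC40A1* ran from 7.11 to 7.74, partly above the lowest cecal signal of 7.38, while *FTH1* ran from 11.96 to 12.31, below the lowest cecal signal of 12.46. *SLC40A1* also moved with the 7 endothelial markers in the jejunum (r 0.73, permutation p 4.5e-04, adjusted 0.014, rho 0.62, adjusted 0.114, r 0.70 without the 2 farthest arrays), of which 4 were called toward the cecum. Nor were these its only relations, since jejunal *SLC40A1* also correlated with the dividing cell markers (r 0.64, permutation p 0.0034, adjusted 0.033, rho 0.49, adjusted 0.197, r 0.45 without the 2 farthest arrays) and negatively with the stomach markers (r -0.69, permutation p 0.0012, adjusted 0.023, rho -0.65, adjusted 0.095, r -0.74 without the 2 farthest arrays). In the cecum it correlated with the B and plasma cell markers (r 0.61, permutation p 0.0058, adjusted 0.033, rho 0.58, adjusted 0.114, r 0.69 without the 2 farthest arrays). *SLC11A2* correlated with the stomach markers in the jejunum (r 0.62, permutation p 0.0040, adjusted 0.033, rho 0.46, adjusted 0.231, r 0.50 without the 2 farthest arrays). It did so in the cecum as well (r 0.62, permutation p 0.0053, adjusted 0.033, rho 0.53, adjusted 0.171, r 0.37 without the 2 farthest arrays). These belonged to 80 relations of 4 genes with 10 marker lists in 2 tissues, of which 14 had an adjusted p under 0.05 by Pearson and 2 by Spearman, and some of them, such as *SLC11A2* with the dividing cell markers in the jejunum (r -0.60, and -0.26 without the 2 farthest arrays), rested on those arrays. The part of these cells in the results was not tested.

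**Figure D4:**
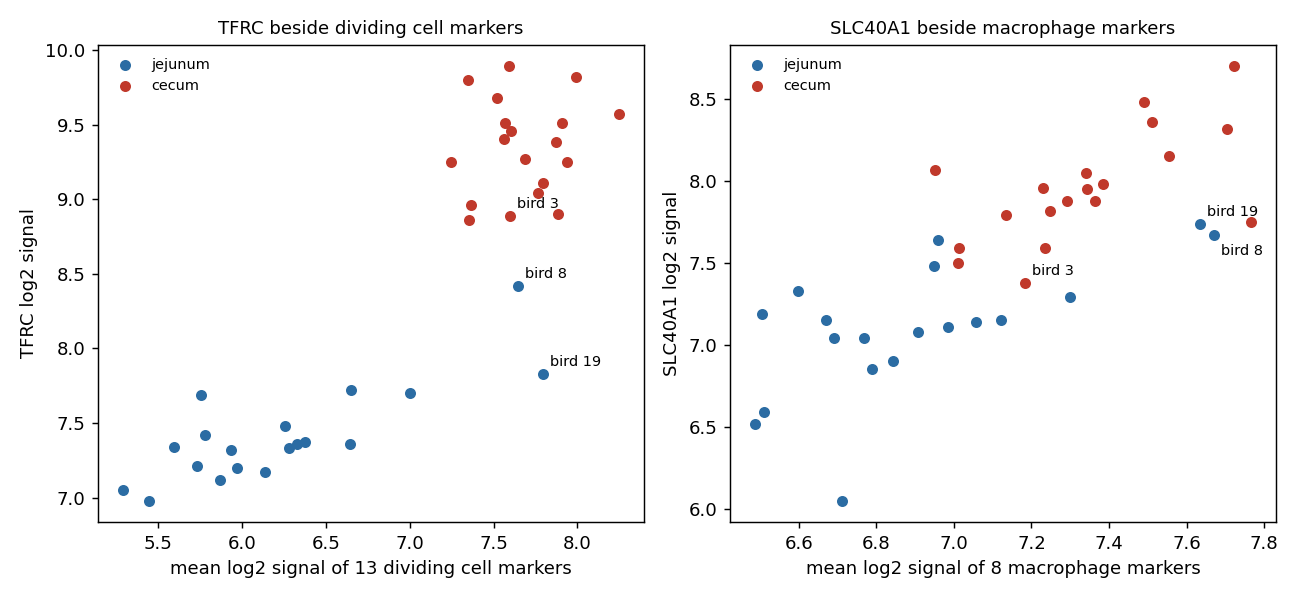
*TFRC* against the mean of 13 dividing cell markers (left) and *SLC40A1* against the mean of 8 macrophage markers (right), in log2 signal, 1 point per array (blue jejunum, red cecum). The 2 jejunal arrays of birds 8 and 19 reach the cecal range of dividing cell markers but not that of *TFRC*, while *SLC40A1* and the macrophage markers overlap between tissues.

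Within each tissue, the members were also set against one another. Across 6 pairs in each tissue, none of the 12 passed adjustment over all probe sets paired with the same gene, and 4 had an unadjusted permutation p under 0.05. Among all probe sets, 2.53% passed it with *TFRC*, 2.67% with *SLC11A2* and 9.52% with *SLC40A1* in the jejunum, and 7.07% with *SLC11A2* and 0.104% with *SLC40A1* in the cecum, while none did with *FTH1* in either tissue or with *TFRC* in the cecum. An adjustment over the 12 pairs alone was not made, so these results do not show that the members were unrelated. In the jejunum the farthest from 0 was *TFRC* with *SLC11A2* (r -0.64, permutation p 0.0028, adjusted 0.069, rho -0.47, adjusted 0.303), which was -0.40 without the 2 farthest arrays and so rested in part on them. In the cecum it was *TFRC* with *FTH1* (r 0.64, permutation p 0.0029, adjusted 0.80, rho 0.63, adjusted 0.998), with 0.55 without the 2 farthest arrays, and the jejunal value of this pair was -0.09. The cecal r of this pair was above that of 99.8% of all probe sets paired with *TFRC*. The jejunal arrays of *SLC11A2* and *SLC40A1* gave r -0.58 (permutation p 0.0082, adjusted 0.089, rho -0.39, adjusted 0.390), and -0.25 without the 2 farthest arrays. *SLC11A2* also moved with the 25th percentile of the array, by r 0.54 in each tissue (permutation p 0.016 and 0.024, adjusted over 8 relations 0.044 and 0.048, rho 0.54 and 0.52, adjusted 0.063 in both, r 0.50 and 0.31 without the 2 farthest arrays). In the jejunum the other genes of these pairs moved with it in the opposite direction, *TFRC* by r -0.60 (permutation p 0.0074, adjusted 0.040, rho -0.28, adjusted 0.481, r -0.25 without the 2 farthest arrays) and *SLC40A1* by r -0.58 (permutation p 0.010, adjusted 0.040, rho -0.55, adjusted 0.063, r -0.42 without the 2 farthest arrays). The part of this percentile in the pairs, and in the relations with marker lists above, was not tested.

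No member passed adjustment over all probe sets for a level shared between the tissues of a bird. An adjustment over the members alone was not made, so this does not show that no level was shared. *FTH1* came closest, with r 0.56 between the tissues of 19 birds (permutation p 0.012, adjusted 0.346, rho 0.46, adjusted 0.486, r 0.55 without the 2 farthest birds). For *FTH1*, r was 0.63 without birds 3 and 19 and 0.40 with arrays centred on the median (adjusted permutation p 0.218 and 0.625). *SLC11A2* gave 0.31, *SLC40A1* -0.03 and *TFRC* -0.10, with adjusted permutation p-values of 0.744, 0.988 and 0.943 and rho of 0.21, 0.05 and -0.21. Of all probe sets, 0.104% had an adjusted p under 0.05 here by Pearson and 0.0437% by Spearman. The mean absolute deviation between birds of *FTH1* was 0.118 in the jejunum and 0.067 in the cecum (permutation p 0.016, adjusted 0.440), and those of the other members gave adjusted values of 0.992 to 1. No probe set of the array passed adjustment in this test, while 1476 had an unadjusted permutation p under 0.05.

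The genes whose levels ran most closely with each member were taken over the 38 deviations from the tissue means, among 8319 genes, as a description. For *TFRC* they were *AURKB*, a mitotic kinase and one of the dividing cell markers above (r 0.73), and *PSMD7* and *PSMD1*, subunits of the regulatory particle of the proteasome (0.72 each), all more expressed in the cecum, by 1.73, 0.53 and 0.47. For *SLC11A2* they were *RBPJL*, a transcription factor, *ZFYVE27*, a protein of the endoplasmic reticulum, and *KANK4* (0.74 each), and none of these differed by more than 0.05 between tissues. For *FTH1* they were *CCNG1* (cyclin G1, 0.76), *IST1*, a factor of membrane scission (0.70), and *POMT1*, a mannosyltransferase (0.67). Unlike *FTH1*, *CCNG1* and *IST1* had higher means in the jejunum, by 0.12 (limma adjusted p 0.576) and 0.18 (adjusted p 0.011). *POMT1* was higher in the cecum by 0.23 (adjusted p 0.0066). For *SLC40A1* they were *MAN1C1*, a Golgi mannosidase (0.80), *LRRC8C*, a subunit of anion channels (0.79), and *CDH11*, a cadherin of mesenchymal cells (0.78), all more expressed in the cecum, by 0.62, 0.56 and 1.07.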

How the data were processed

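The 38 arrays (19 birds, 1 array per bird and tissue) were grouped by the tissue in their labels. The same bird number in both tissues was taken as the same bird. Values were used as deposited, as normalized log2 signals with 2 decimals, and cover 18308 probe sets. How the background was corrected and the arrays normalized is not given in the sources used here, and nothing was normalized again. Arrays have no read depth, so their number limits the precision. Genes were named from the platform annotation, which gave a single symbol to 12300 probe sets.

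The model had tissue alone and was fitted by lmFit and eBayes (limma 3.58.1, R 4.3.3), with Benjamini-Hochberg adjustment across the 18308 probe sets. Correlations (100000 permutations) and spreads (mean absolute deviation) were tested two-sided by permutation. Their p-values were adjusted over all probe sets, except relations with marker lists (over 80) and with the array percentile above (over 8). Python 3.11.15 with numpy 2.4.6, pandas 2.3.3, scipy 1.17.1 and matplotlib 3.10.9 was used, and the tests were tried on simulated data. Named genes were every member with every probe set, list genes that were DETs, genes of the uptake, transferrin, storage, export and regulator lists with a fold of at least 1.5 and an adjusted p under 0.05, up to 3 markers per list, and the 3 genes nearest to each member. Other list genes were named after their values were seen. The members and lists were chosen with earlier results of these data known.

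The pairing rests on the bird numbers. Deviations from the tissue mean correlated between the arrays of a bird by 0.114 on average (-0.133 to 0.411, above 0 in 14 of 19 birds).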

Additional observations from a re-analysis of the deposited data

How the results depend on the processing

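With the bird as a replicate block no call of a member changed, and the limma adjusted p-values were 3.2e-13 for *TFRC*, 2.5e-08 for *FTH1*, 1.5e-06 for *SLC40A1* and 0.232 for *SLC11A2*, with 674 and 663 DETs of the jejunum and cecum over all probe sets. The exact permutation test over 524288 sign flips by bird gave 4e-06, the smallest value it can give, for *TFRC* and *FTH1*, 8e-06 for *SLC40A1* and 0.096 for *SLC11A2*. Leaving out each bird in turn, jejunum minus cecum ran from -1.97 to -1.87 for *TFRC*, -0.46 to -0.43 for *FTH1*, -0.91 to -0.80 for *SLC40A1* and 0.07 to 0.11 for *SLC11A2*, with no change of call, and 653 to 698 and 633 to 720 DETs. Quantile normalization, centring on the median, the filter on low signals (11718 probe sets kept) and array weights changed no call of a member.

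These values changed a call, a count or a sign. The mean of both *TFRC* probe sets gave -0.93, since it averages in the probe set without a difference. Without 4 arrays, among them those with its lowest jejunal and its highest cecal signal, *SLC11A2* gave 0.16 (adjusted p 0.036), and the cause was not tested. TREAT, which asks for more than a 2-fold change, gave an adjusted p of 1 for *FTH1* (-0.45) and *SLC40A1* (-0.85), left 361 and 276 DETs and ended the call of 9 of the 15 other named list genes, by its own construction. The count of cecal DETs in the iron and metal lists went from 4 to 3 under the filter on low signals, which removes *STEAP2*, to 3 with the mean of all probe sets, which ends the DET call of *TFRC*, and to 3 under TREAT, and that of jejunal DETs from 6 to 4 under TREAT. Quantile normalization turned the spread difference of *FTH1* to -0.0015 and the jejunal r of *TFRC* with *FTH1* to 0.092 and of *FTH1* with *SLC40A1* to 0.12. Without birds 3 and 19 the r of *SLC40A1* between tissues was 0.11. None of these reversed values had passed a test, and the cause was not tested.

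Only 4 of the 5 genes and 93 of the 132 list genes had a named probe set. Each gene rests on a single probe set, except *TFRC* and 5 list genes, and 3 of these 6 differed in call between probe sets (*TFRC*, *STEAP1* and *CIAO1*).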
